A study of Mus musculus with 28 samples.

Results

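The genes described here are 9 receptors, bridging molecules and adaptors of phagocytosis, namely Itgav, Itgb5, Mfge8, Mertk, Axl, Gas6, Megf10, Lrp1 and Gulp1, out of 18194 genes with a probe set of their own. They were chosen as known engulfment genes, with earlier results of these data known, so the number of them called is no independent test. They were read from 21 single-symbol probe sets, the highest of a gene in each cell being used. Each of the 28 arrays carried amplified cDNA from 1 cell that was picked by shape as a Müller glial cell (MGC), the radial glia of the retina. The cells came from retinas of mouse models of retinitis pigmentosa (RP), in which rods die first and cones later, and from retinas without the RP mutations.

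Adult WT cells (n = 5, C57/BL6, older than 25 weeks by the sample labels, with a lower age limit in the paper) had been published earlier by the same laboratory. Rhod-ko cells, from C57/BL6 knockout mice in which rods die, were taken at 8 weeks (n = 5) and 25 weeks (n = 5). Cells with the rd1 mutation of the rod phosphodiesterase gene Pde6b, on FVB, were taken at P13 (postnatal day 13, n = 5) and at 5 weeks, and congenic FVB cells without the mutation at P13 (n = 3). The 5 week rd1 arrays named A5 and A6 hardly differed (r = 0.989, against at most 0.764 for the other 377 pairs) and were averaged, which leaves 4 cells in that group and 27 in all. By the study's methods several litters gave the cells of each model, but no label names the animal of a cell, so each condition counts as 1 sample and no test between conditions was made. Counts of cells are given with exact 95% binomial intervals where they matter, and these cover counting error only.

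Values are MAS 5.0 signals on a linear scale. Signals from 2000 upward are called on. A difference is that of the group medians of log2 signal after signals under 1000 were raised to 1000, and it is called at 1 or more in size (2-fold). Where the control median was under that floor the difference is a lower bound and is given as "at least". With the group median under it a negative difference could be lower still and is given as "or lower". Every Gulp1 value of -1.05 is such a bound.

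Several cells stood apart from their labels or from the rest. In 3 of the 5 adult WT cells (MG1, MG16 and MG22) only 4 to 6 of 16 genes that every cell uses were on, against 15 or 16 in each of the other 24 cells. The 16 genes were chosen after the values were seen. Cox4i1, a subunit of cytochrome oxidase, read 172, 202 and 56.4 in those 3 cells and 6517 and 39047 in MG3 and MG15. In the same 3 cells 15 to 16 of 20 MGC markers were on. They were not low over all genes, with 2045, 2603 and 2197 on, against 1847 in MG3 and 2437 in MG15. All 3 congenic FVB cells and cells A1 and B1 of rd1 at P13 had more vascular markers on (8 to 10 of 12) than MGC markers (4 to 8 of 20). The endothelial gene Cldn5 read 23801 to 29446 in the congenic cells, and the other 22 cells had 14 to 19 MGC markers and 0 to 3 vascular markers on. Cell 7 of Rhod-ko at 8 weeks had 6 of 15 microglia and macrophage markers on, among them Csf1r at 118151, against 0 or 1 in the other cells. Rod markers were on in every P13 cell too, 5 to 10 of 13 in congenic FVB and 7 to 9 in rd1. Congenic cell A4 had 10 rod and 9 vascular markers on. MGC markers outnumbered vascular ones in 22 of 27 cells, and mainly MGC or mainly vascular markers below refers to these counts alone. The comparisons with adult WT below are given with and without the 3 adult WT cells. Pde6b, a rod gene, was under 2000 in every adult WT, Rhod-ko and 5 week rd1 cell. At P13 it was on in 2 of 3 congenic cells (at most 14563) and 2 of 5 rd1 cells (at most 5781). It therefore does not check the genotype labels.

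Dying cells expose phosphatidylserine, which phagocytes meet through several routes. The secreted bridge Mfge8 links phosphatidylserine to the integrin pair of Itgav (alpha-v) and Itgb5 (beta-5), and the bridge Gas6 links it to the TAM receptor kinases Mertk and Axl. Retinal pigment epithelium uses alpha-v beta-5 to bind shed photoreceptor outer segments and Mertk to take them in. Megf10 is a glial engulfment receptor that astrocytes use to clear synapses, Lrp1 is a large endocytic receptor that also carries calreticulin-dependent uptake, and Gulp1 is a cytoplasmic adaptor that binds the tails of both.

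Mfge8 was the most widely expressed of the 9 genes. It was on in 24 of 27 cells (88.9%, interval 70.8 to 97.6%), and 1.32% of all genes were on in as many. It was on in every cell of both RP models and in the 3 congenic cells, and in 2 of 5 adult WT cells. In Rhod-ko at 8 weeks the 5 cells read 13992, 24932, 48013, 67412 and 77976, and at 25 weeks 16329, 26654, 27016, 27016 and 30170. In rd1 at P13 the cells read 30001, 23889 and 32888 in B4, A4 and B3, and 7663 and 6583 in A1 and B1, which carried the vascular markers. At 5 weeks rd1 cells read 17322, 39045, 68655 and 59025.

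The adult WT cells fell into 2 sets for Mfge8. MG15 and MG3 read 23066 and 25841, within the range of every RP group, whereas MG1, MG16 and MG22 read 25.5, 29.4 and 7.0. These last 3 are the cells that lacked most of the genes every cell uses. Rlbp1, the retinoid-binding protein of MGCs, had the same split, at 109338 and 149346 in MG15 and MG3 and at 22.2, 24.5 and 147 in the others. Over the 22 cells with mainly MGC markers, Mfge8 and Rlbp1 were on together in 19 and off together in 3. In all 20 genes (0.11% of 18194) had this pattern of on and off over the 22 cells, among them Cox4i1, Actg1, Tpt1 and the ribosomal protein genes Rpl8, Rps19 and Rpsa. That pattern was looked for after the values were seen. In order of median the groups ran from rd1 at 5 weeks (49035) over younger Rhod-ko (48013), older Rhod-ko (27016), rd1 at P13 (23889) and congenic FVB (8183) to adult WT (29.4), and all neighbours in this order overlapped.

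**Figure D1:**
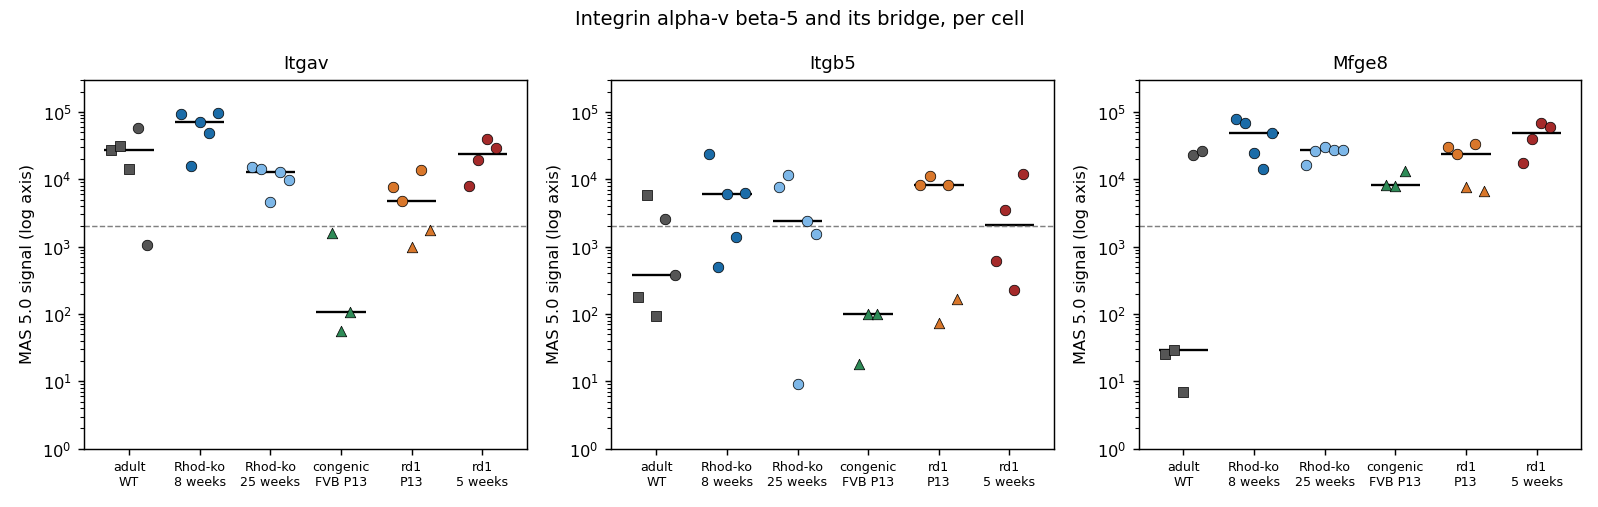
MAS 5.0 signals of Itgav, Itgb5 and Mfge8 in each of the 27 cells by group, on a log axis. Points are cells, horizontal bars are group medians, the dashed line is the signal of 2000 above which a gene was called on, triangles are cells with more vascular than MGC markers on and squares are the 3 adult WT cells with few ubiquitous genes on. Mfge8 was above 2000 in 24 cells, and the 3 squares lie at 7.0 to 29.4.

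Itgav, the alpha-v subunit, was on in 21 of 27 cells, and 2.85% of genes were on in as many. Adult WT cells MG1, MG16, MG22, MG15 and MG3 read 27093, 30704, 14005, 57198 and 1039. Rhod-ko cells at 8 weeks read 15595, 48782, 70306, 92919 and 97713, and at 25 weeks 4523, 9672, 12791, 14017 and 15110. The lowest cell at 8 weeks therefore lay above the highest at 25 weeks. In rd1 the cells at 5 weeks read 7865, 19360, 39014 and 28612, and at P13 B4, A4 and B3 read 7686, 4759 and 13847. The 5 cells with mainly vascular markers were all under 2000, from 56.4 to 1794. Group medians ran from Rhod-ko at 8 weeks (70306) over adult WT (27093), rd1 at 5 weeks (23986), the older Rhod-ko (12791) and rd1 at P13 (4759) to congenic FVB (108), each group overlapping the next.

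Itgb5, which encodes the beta-5 partner, was on in 13 of 27 cells and varied widely within every group but congenic FVB, where it read 18.1 to 100.1. In adult WT 2 cells were on, MG16 at 5857 and MG15 at 2608, and the other 3 read 92.3 to 376. Rhod-ko cells at 8 weeks read 504, 1407, 6077, 6214 and 24015, and at 25 weeks 9.1, 1526, 2395, 7679 and 11593. In rd1 the P13 cells B4, A4 and B3 read 8237, 11169 and 8081, with 73.1 and 164 in A1 and B1, and the 5 week cells read 606, 3554, 228 and 11852. Itgb5 has 4 probe sets, each on in 11 to 13 cells. The median was highest in rd1 at P13 (8081) and lowest in congenic FVB (99.6), and all neighbouring groups overlapped.

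Both integrin genes and Mfge8 were on in the same cell in 12 of 27 cells. This was the case in MG15 of adult WT, in 3 of 5 cells of Rhod-ko at either age, in 3 of 5 of rd1 at P13 and in 2 of 4 at 5 weeks. No congenic FVB cell had all 3. Where the set was incomplete in the RP models, Itgb5 was the missing gene in every cell with mainly MGC markers.

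The receptors Mertk and Axl were sparse outside rd1 at 5 weeks, and their ligand Gas6 was sparse in every adult group. Mertk was on in 6 of 27 cells, Axl in 5 and Gas6 in 6, and 24.8%, 28.7% and 24.8% of all genes were on in as many cells. At least 1 of the receptors was on in 9 cells, and all 4 rd1 cells at 5 weeks were among them (interval 39.8 to 100%), against 1 of 5 in adult WT, 1 and 2 of 5 in Rhod-ko at 8 and 25 weeks, 1 of 3 in congenic FVB and 0 of 5 in rd1 at P13 (interval 0.0 to 52.2%).

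Mertk, the receptor kinase needed for outer segment uptake in pigment epithelium, read 4144, 2328, 40.8 and 10744 in the rd1 cells A1, A5/A6, B1 and A8 at 5 weeks. It was under 117 in every adult WT cell. In Rhod-ko 1 cell was on at each age, cell 2 at 4148 and cell A3 at 2333, and the medians were 445 and 14.1. In rd1 at P13 the highest Mertk signal was 1779, in A1, a cell with mainly vascular markers, and 1 congenic cell was on at 2141. Mertk has 1 probe set on the array. Rpe65 and Lrat, which define pigment epithelium, reached at most 638 and 322.1 in the 27 cells and so were off in every one, and 0 to 3 of the 10 pigment epithelium markers measured were on per cell.

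Axl, the second TAM receptor, read 48.5, 2845, 4134 and 10361 in the same 4 cells. Both receptors were on in A5/A6 and A8, the only cells of the 27 with the pair, with Mertk alone in A1 and Axl alone in B1. The highest Axl signal of all was in adult WT cell MG22 at 17795, 1 of the 3 cells with few ubiquitous genes on, and the other adult WT cells read 39.9 to 141. In Rhod-ko the gene was on in 1 cell, A1 at 25 weeks (5146), and all cells at 8 weeks lay between 141 and 1253. In rd1 at P13 the highest cell was A4 at 1473.

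Gas6, the ligand of both receptors, was on in 1 rd1 cell at 5 weeks (A1, 2720), 2 at P13 (A1 at 2593 and B3 at 2106), 1 Rhod-ko cell at 25 weeks (A1, 3549) and 2 congenic cells (3754 and 4423). Adult WT cells read 10.2 to 1025 and Rhod-ko cells at 8 weeks 514 to 1176. Gas6 was on in 3 of the 5 cells with mainly vascular markers and in 3 of the other 22. A TAM receptor and Gas6 were on in the same cell in 2 of 27 cells, A1 of Rhod-ko at 25 weeks and A1 of rd1 at 5 weeks. In cell 7 of Rhod-ko at 8 weeks, which had the microglia markers, Mertk read 445, Axl 670 and Gas6 1176.

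**Figure D2:**
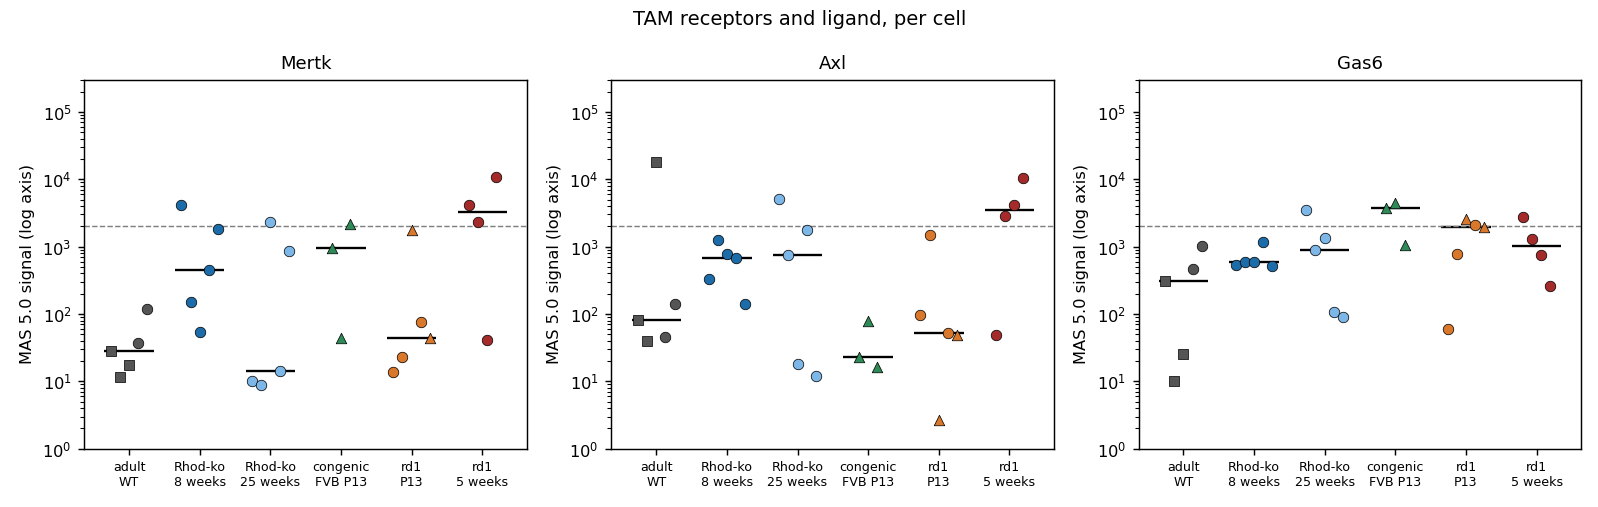
MAS 5.0 signals of Mertk, Axl and Gas6 in each of the 27 cells by group, on a log axis, with the symbols, median bars and dashed line at 2000 as in the plot of the integrin genes. In rd1 at 5 weeks 3 of 4 cells lie above 2000 for Mertk and 3 of 4 for Axl, with cell B1 low for Mertk and cell A1 low for Axl.

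Megf10 was on in 16 of 27 cells, and 6.34% of genes were on in as many. The adult WT cells MG1, MG16, MG22, MG15 and MG3 read 264, 8752, 20565, 15863 and 16135. Rhod-ko cells at 25 weeks were all on, at 4698, 5054, 5722, 11518 and 11836. At 8 weeks 3 of 5 were on and the cells read 1363, 1407, 2932, 4441 and 9505. In rd1 at 5 weeks cells A1 and A8 read 5361 and 9927 and A5/A6 and B1 read 244 and 8.3, and at P13 B4 and B3 read 7314 and 4091 with 9.8 to 55.4 in the other 3. Congenic FVB cells read 4.4 to 25.6. Adult WT and each RP group overlapped, and so did all neighbours in the order of medians. Megf10 has 1 probe set.

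Lrp1 was off in all 5 adult WT cells (interval 0.0 to 52.2%), which read 140 to 395, and on in all 5 Rhod-ko cells at 25 weeks and all 4 rd1 cells at 5 weeks. The Rhod-ko cells at 25 weeks read 2858, 4247, 4688, 6110 and 6119 and the rd1 cells at 5 weeks 2520, 2728, 4777 and 5392, so neither group overlapped adult WT. The adult WT cells MG15 and MG3, in which the ubiquitous genes were on, read 249 and 395. In rd1 at P13 B4, A4 and B3 read 5299, 2853 and 4003 and A1 and B1 read 17.7 and 56.9. Congenic FVB cells read 61.1 to 156.

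Lrp1 in Rhod-ko at 8 weeks came from another probe set than elsewhere. Cells 3, 7 and 8 were on, at 16358, 8711 and 37831, and cells 2 and 1 read 162 and 329. In those 3 cells the signal was of probe set 1442849_at, and 1448655_at read 263, 383 and 468. In the other 12 cells with Lrp1 on the signal was of 1448655_at, and 1442849_at was on in none of them. By 1448655_at alone no Rhod-ko cell at 8 weeks was on. The 3 cells also had the highest ratios of the 3′ to the 5′ Gapdh control probe sets of all 27 cells, 7.49, 18.2 and 13.8, against 1.17 to 2.05 in Rhod-ko at 25 weeks, 1.61 to 2.22 in rd1 at 5 weeks and 0.554 to 4.06 in adult WT. Cells 2 and 1 of the same group, without the 1442849_at signal, had ratios of 6.17 and 3.95, the first close to that of cell 3. Of 13 rod markers 8 were on in cells 7 and 8 and 3 in cell 3, against 1 and 3 in cells 2 and 1. The part of these differences in the probe set split was not tested.

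**Figure D3:**
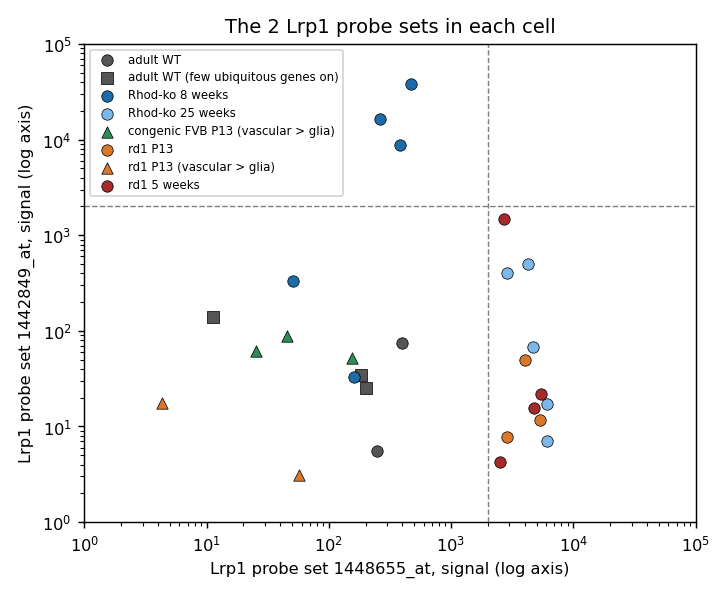
Signals of the 2 Lrp1 probe sets in each of the 27 cells, on log axes, colored by group, with triangles for cells with more vascular than MGC markers on, squares for the 3 adult WT cells with few ubiquitous genes on and dashed lines at 2000. The 12 cells on by 1448655_at lie to the right, the 3 Rhod-ko cells at 8 weeks on by 1442849_at lie at the top, and no cell is above 2000 on both axes.

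Gulp1 was on in 1 cell of 27, adult WT cell MG15 at 4289. All other cells read at most 652, and 57.8% of genes were on in as many cells. Megf10 and Lrp1 were on together in 12 of 27 cells, which were 3 of 5 in Rhod-ko at 8 weeks, 5 of 5 at 25 weeks, 2 of 5 in rd1 at P13, 2 of 4 at 5 weeks and none in adult WT or congenic FVB. Lrp1 and Mfge8 were on together in 15 cells, which is every cell with Lrp1 on.

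**Figure D4:**
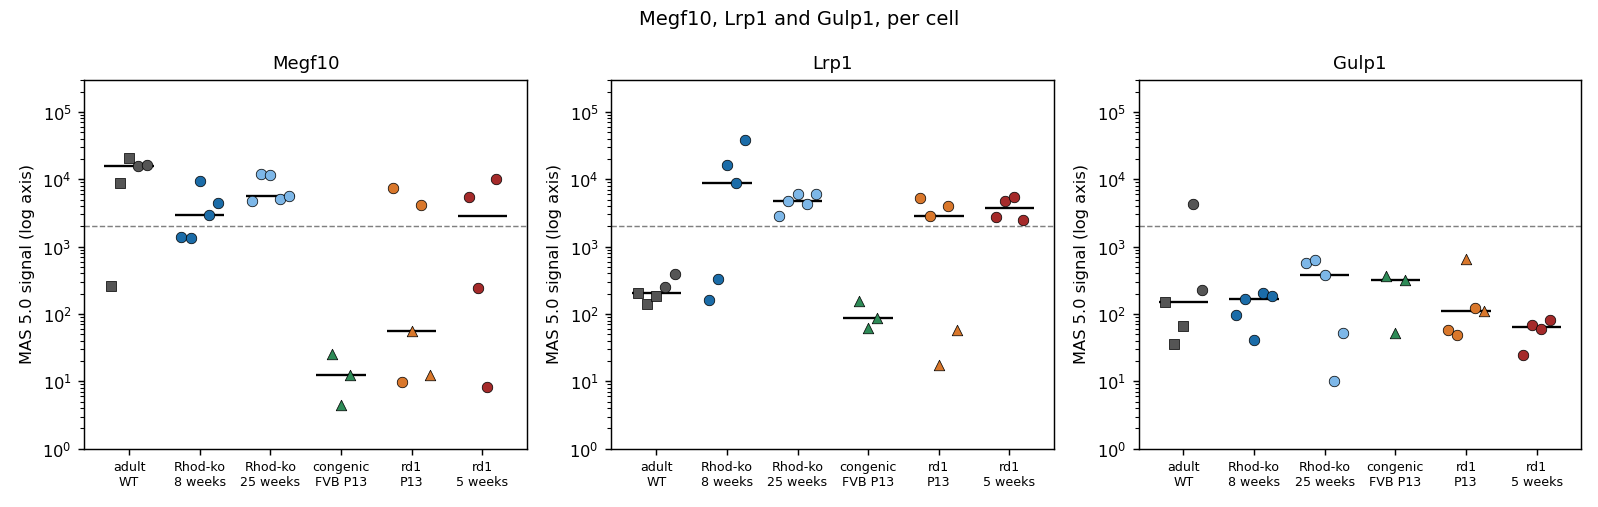
MAS 5.0 signals of Megf10, Lrp1 and Gulp1 in each of the 27 cells by group, on a log axis, with symbols, median bars and the dashed line at 2000 as in the plot of the integrin genes. Lrp1 lies under 2000 in the 5 adult WT cells and above it in every cell of the oldest group of each model, and Gulp1 is above 2000 in 1 adult WT cell.

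Rhod-ko cells at 8 weeks, the age of rod death, were set against adult WT. By the sample labels they differ from it in age as well as genotype. Of the 9 genes 4 had a median at least 2-fold higher, where 6.17% of all genes did, and 1 at least 2-fold lower, where 5.12% did. The median of Itgav was higher by 1.38 (log2), Itgb5 by at least 2.60, Mfge8 by at least 5.59 and Lrp1 by at least 3.12, and that of Megf10 was lower, at -2.44. For Mertk, Axl, Gas6 and Gulp1 both medians lay under the floor, as for 80.2% of genes. Such genes cannot be called, so they hold down the shares of all genes called. They were a smaller part of the members, whose counts therefore cannot be read as an excess over those shares, here or below. No member was free of overlap between the groups, where 0.698% of genes were on the higher and 0.506% on the lower side, and none was on in every cell at 8 weeks and in no control cell (0.137% of genes). Against the 2 adult WT cells with most ubiquitous genes on, 3 members were higher (4.92% of genes) and 2 lower (10.1%): Itgav by 3.19, Itgb5 by 1.91, Lrp1 by at least 3.12, Megf10 at -2.45 and Gulp1 at -1.05, while Mfge8 was 0.98 and was no longer called. The Itgav value comes from 1 cell of the pair, MG3 at 1039, as MG15 read 57198, within the range at 8 weeks, and the Gulp1 value comes from MG15 alone. By 1448655_at alone the Lrp1 difference was 0. Without cell 7 it was 2.02 and without cell 3 or 8 it was 1.56. Itgb5 was 1.55 without cell 2 or 8 and 1.56 without cell 3. Mfge8 was 3.32 without WT cell MG1, MG16 or MG22. It was off in each of these 3 cells, so leaving all 3 out had to raise its control median, from 29.4 to 24453. The loss of its call against the 2 cells followed from that choice, here and in the other comparisons with adult WT.

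Rhod-ko cells at 25 weeks, the age of cone death, were set against the same adult WT cells. Medians of 3 members were at least 2-fold higher (7.9% of genes) and of 2 lower (3.7%). Lrp1 was higher by at least 2.23 with no overlap between the groups, as for 0.324% of genes, and was on in every cell of the group and in no control cell, as for 0.148%. It rests on 1448655_at, and by 1442849_at alone, the probe set of higher mean, it was 0. Mfge8 was higher by at least 4.76 and Itgb5 by at least 1.26. Megf10 stood at -1.47 and Itgav at -1.08, both with overlap (0.121% of genes were lower without it), and the 4 other members had both medians under the floor (79.2% of genes). Against the 2 adult WT cells only Lrp1 remained called higher (6.08% of genes), with its control median at the floor as before, and Megf10 at -1.48 and Gulp1 at -1.05 were called lower (7.96%). Mfge8 was then 0.15, Itgb5 0.57 and Itgav 0.73, the last with its sign turned, from 2 cells at 57198 and 1039. Itgb5 also fell under the call, at 0.57, without WT cell MG1, MG22 or MG3, and at 0.93 without cell A1 or A2. Itgav was -0.70, -0.61 and -0.61 without WT cells MG1, MG16 and MG15, and Megf10 -0.97 without cell A1 or A4.

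The cells of rd1 at 5 weeks, the age of cone death, were set against adult WT, from which they differ in strain and age as well as genotype. Here 4 members were at least 2-fold higher (6.35% of genes) and 1 lower (4.25%). The median of the 9 differences was 0.91, which is that of Itgb5. Over all genes the median is no yardstick for it, being held at 0 by the 77.7% with both medians under the floor. Mfge8 was higher by at least 5.59, Mertk by at least 1.64, Axl by at least 1.78 and Lrp1 by at least 1.85. Lrp1 was again without overlap between the groups (0.308% of genes) and on in every rd1 cell and no control cell (0.115%). Megf10 stood at -2.78 with overlap (0.11% of genes were lower without it), Itgb5 at 0.91 or more, Gas6 at 0.20 or more and Itgav at -0.20. Gulp1 was the 1 member with both medians under the floor (77.7% of genes). Against the 2 adult WT cells 4 members were higher (5.19%) and 2 lower (8.79%): Mertk, Axl and Lrp1 were called as before, their control medians being at the floor with either set of cells so that the differences could not move, Itgav became 1.61 and Mfge8 0.98, and Megf10 was -2.79 and Gulp1 -1.05. Itgb5 was 1.83 without cell A1 or B1, 0 without A5/A6 or A8 and 0.22 without WT cell MG1, MG22 or MG3. Megf10 was -1.57 without A5/A6 or B1, -3.99 without A1 or A8 and, with congenic FVB as the control, 1.21. With a floor of 2000 Mertk, Axl and Lrp1 were no longer called, at 0.64, 0.78 and 0.85, and with group means Axl was 0.90. By 1442849_at alone, the probe set of higher mean, the Lrp1 difference was 0.

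Rod death in rd1 was compared with congenic FVB at P13, where 4 members were at least 2-fold higher (4.79% of genes) and 0 lower (6.41%). Itgb5 was higher by at least 3.01, Itgav by at least 2.25, Mfge8 by 1.55 and Lrp1 by at least 1.51, and Gas6 stood at -0.96. None was free of overlap (0.352% of genes were higher without it) or on in every rd1 cell and no congenic cell (0.104%), and 4 had both medians under the floor (72.6%). All 3 congenic cells and 2 of the 5 rd1 cells had mainly vascular markers, so cell type and genotype cannot be told apart in the group medians. Within rd1 at P13 itself the cells B4, A4 and B3 had Itgav, Itgb5, Mfge8 and Lrp1 on, and A1 and B1 had Mfge8 on and the other 3 off. Mfge8 was 0.73 without B4 or B3 and 0.89 without A4, and Lrp1 0.76 without B4 or B3. Set against adult WT, the cells B4, A4 and B3 gave an Itgav difference of -1.82.

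**Figure D5:**
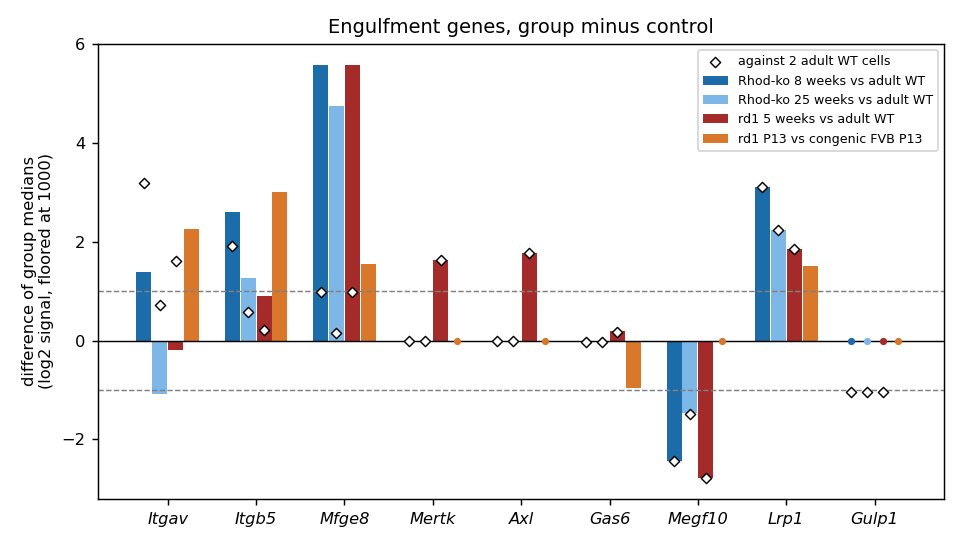
Differences of group medians of log2 signal, floored at 1000, for the 9 genes in 4 comparisons. Bars show the difference with all cells, small dots mark a difference of 0, open diamonds show the difference against the 2 adult WT cells with most ubiquitous genes on, and dashed lines are the 2-fold limits. The Mfge8 bars of 4.76 to 5.59 fall to diamonds of 0.15 to 0.98, and the Lrp1 diamonds lie on their bars at 1.85 to 3.12. Mfge8 was off in every adult WT cell left out, so its fall followed from that choice. The Lrp1 control medians were at the floor with either set of cells.

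The 3 comparisons with adult WT share those control cells, and study and condition cannot be told apart in them. The ages of each model were therefore also compared with each other, a contrast added after the values were seen. In Rhod-ko 2 members were at least 2-fold lower at 25 than at 8 weeks (4.16% of genes) and 0 higher (7.33%). No gene of the 9 was higher without overlap (1.1% of all genes were). Itgav was -2.46 with no overlap (0.726% of genes) and Itgb5 -1.34, with Mfge8 at -0.83 and Megf10 at 0.96. Some other abundant genes were lower at 25 weeks without overlap too. Among them were Gapdh (128079 to 240885 at 8 weeks, 36874 to 42915 at 25), Cox4i1 (57120 to 128166, then 13127 to 28816) and Rlbp1 (86012 to 176910, then 38972 to 53099). So were Tpt1 and Rps19. Actg1 and Glul, glutamine synthetase, overlapped between the ages, and the Glul median was higher at 25 weeks (31288, then 38159). The Gapdh 3′ to 5′ ratio lay between 3.95 and 18.2 at 8 weeks and between 1.17 and 2.05 at 25. The part of these signals and of the ratio in the Itgav difference was not tested. In rd1 5 members were at least 2-fold higher at 5 weeks than at P13 (4.12%) and 1 lower (5.78%): Itgav 2.31, Mfge8 1.01, Mertk 1.64, Axl 1.78, Megf10 1.21 and Itgb5 -2.10, all with overlap (0.132% of genes were higher and 0.368% lower without it). The P13 group holds the 2 cells with mainly vascular markers. Its medians of Mertk, Axl and Megf10 were under the floor, so their differences are lower bounds.

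The cells were also split by their markers. Itgav, Itgb5, Megf10 and Lrp1 were on in most cells with mainly MGC markers and in none with mainly vascular markers. Mfge8, Mertk and Gas6 were on in cells of both sets. Itgav was on in 21 of the 22 cells with mainly MGC markers, Mfge8 in 19, Megf10 in 16, Lrp1 in 15 and Itgb5 in 13. Itgav, Itgb5, Axl, Megf10, Lrp1 and Gulp1 were off in all 5 cells with mainly vascular markers (interval 0.0 to 52.2%), and Mfge8 was on in all 5, at 6583 to 13249. Mertk was on in 1 of the 5 and 5 of the 22, and Gas6 in 3 of the 5 and 3 of the 22. Axl and Gulp1 were also off in most of the 22, being on in 5 and 1 of them. Being on in at least 15 of the 22 and in none of the 5 was found for 3 members and for 79 genes in all (0.434%). The limit of 15 is the number of the 22 with Lrp1 on, and it leaves out Itgb5 at 13. It thus fixed the number of members, which cannot be read against the share of all genes. This count was made after the values were seen, and the 5 cells are all from P13 and FVB. Among the 17 RP cells with mainly MGC markers Itgav and Mfge8 were on in 17, Lrp1 in 15, Megf10 in 12, Itgb5 in 11, Mertk in 5, Axl in 4 and Gas6 in 3.

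Single cells had between 1 and 7 of the 9 genes on, with a median of 4. The medians were 3 in adult WT, 4 for Rhod-ko at 8 weeks, 5 at 25 weeks, 2 in congenic FVB, 4 in rd1 at P13 and 6 at 5 weeks. The cells with 7 were A1 of Rhod-ko at 25 weeks and A8 of rd1 at 5 weeks. Over all genes the number on ran from 1847 to 2603 per adult WT cell, 1970 to 2363 in Rhod-ko at 8 weeks and 2670 to 3123 at 25 weeks. It was 2927 to 2998 in congenic FVB, 2841 to 3072 in rd1 at P13 and 1858 to 3208 at 5 weeks. Cells thus also differed in how many genes reached 2000, and congenic FVB, with the lowest median of members on, was not low in this.

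Other genes of engulfment, 52 measured of 56 listed, showed a mixed picture. Of 5 other genes of the TAM list Tyro3, the third receptor, was on in 1 cell (3795, Rhod-ko at 25 weeks), Pros1, the other main ligand, in 2 adult WT cells, Tub in 5 cells, and Tulp1 and Lgals3 in 8 each. Of the 5 other partners and bridges of alpha-v, Itgb3 and Itgb6 were on in no cell, Itgb8 in 1, Itgb1 in 2 and Edil3, a bridge related to Mfge8, in 5. Among genes that act inside the cell the small GTPases Cdc42 and Rac1, which drive the phagocytic cup, were on in 27 and 23 cells and Rab7, of late phagosomes, in 23. Anxa5, which binds phosphatidylserine, was on in 24 and Calr, calreticulin, in 20.

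At 8 weeks in Rhod-ko 6 of the 52 (11.5%) were at least 2-fold higher than adult WT, where 6.17% of all genes were, and 3 (5.77%) lower, where 5.12% were. At 25 weeks 8 (15.4%, against 7.9%) were higher and 2 (3.85%, against 3.7%) lower, and in rd1 at 5 weeks 3 (5.77%, against 6.35%) and 2 (3.85%, against 4.25%). The shares of genes lower, and both shares in rd1, were thus near those of all genes. No call is possible with both medians under the floor, which held for fewer of the 52 than of all genes. It held for 67.3% against 80.2% at 8 weeks, 61.5% against 79.2% at 25 weeks and 67.3% against 77.7% in rd1. The larger shares higher in Rhod-ko therefore cannot be read as an excess. Against the 2 adult WT cells with most ubiquitous genes on, 5 were higher and 7 lower at 8 weeks (4.92% and 10.1% of all genes). At 25 weeks the counts were 4 and 5 (6.08% and 7.96%), and in rd1 3 and 8 (5.19% and 8.79%). Calls shared by both controls were not counted over all genes, so the next counts cannot be read against a share. Of the 52, 5 were higher with either control at 8 weeks, 2 at 25 weeks and 2 in rd1 at 5 weeks. Lower with either were 1, 1 and 0. Anxa5 was among those higher in each comparison, by 2.91, 2.76 and 1.71 with all adult WT cells and by 3.69, 3.53 and 2.49 with the 2. Scarb1, a scavenger receptor, was higher by 2.94 in rd1 at 5 weeks and by 3.52 against the 2 cells. Lrpap1, the chaperone of Lrp1, was higher by 3.03 in Rhod-ko at 8 weeks, and by 1.40 against the 2 cells. Lgals3, a galectin that serves as a ligand of Mertk, was higher by at least 2.10 in Rhod-ko at 25 weeks and by 1.74 against the 2 cells. All of these genes overlapped adult WT, as did every other of the 52 that was called higher. Over all genes 0.698, 0.324 and 0.308% were higher without overlap. Anxa5 reached 30250 in an adult WT cell.

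Other calls in this list turned with the control cells. The adaptor Crk stood at -3.84 or lower, -2.23 and -1.90 with all adult WT cells (median 14347). Against the 2, which read 240 and 593, it stood at 0, at least 1.61 and at least 1.95. Calr was higher by at least 1.39, 1.46 and 1.34, and then stood at -0.78, -0.71 and -0.83, from cells at 178 and 20222. The same pair of cells gave Rac1 differences of -0.63, 0.86 and 0.24 in place of -2.37, -0.88 and -1.49.

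In rd1 at P13, against congenic FVB, 1 of the 52 (1.92%, against 4.79% of all genes) was higher and 5 (9.62%, against 6.41%) were lower. The higher one was Cd24a (at least 2.52), a surface glycoprotein that acts as a do-not-engulf signal. Among the lower ones Anxa1 stood at -2.06 or lower and Rac1 at -1.39. The integrin subunit Itgb1 (1747 to 3212 in congenic FVB, 563 to 1500 in rd1) and Rac1 were without overlap, as for 0.835% of genes. The median difference over the 52 genes was 0 in all 4 comparisons, as it was over all genes. The floor fixed both, since 55.8 to 67.3% of the 52 and 72.6 to 80.2% of all genes had both medians under it.

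Genes whose signals ranked the 27 cells most like each member were named by Spearman's rank correlation over 7124 genes on in at least 3 cells. All cells enter, so the values also carry the split of the markers and of the arrays. Itgav was most like Clu (0.87), Gapdh (0.85) and Nupr1 (0.84), and Mfge8 most like Cox4i2 (0.84), Fxyd1 and Pdpn (0.78 each). Lrp1 was most like Cntfr (0.80), Fxyd1 (0.74) and Ppp1r12b (0.71), and Megf10 most like Fbxo2 (0.74), Cers6 and Aph1b (0.73 each). For Itgb5 the closest were Slc27a1 (0.73), Akt2 and Meis1 (0.72 each). For the sparse TAM genes they were Leng1, Wdr5 and Zfp775 with Mertk (0.73, 0.70 and 0.68), Faim2, Ubxn1 and Capzb with Axl (0.73, 0.66 and 0.65) and Cdk19, St6galnac2 and Cct8 with Gas6 (0.80, 0.74 and 0.74). Among the members the highest were Mfge8 with Lrp1 (0.56) and Itgav with Itgb5 (0.54).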

How the data were processed

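Single MGCs were picked after papain dissociation, lysed, reverse transcribed from an oligo dT primer and amplified by PCR, and each cDNA was hybridized to an Affymetrix whole-genome mouse array. The deposited values are MAS 5.0 signal intensities on a linear scale, and the authors' scaling gave a 2% trimmed mean of 500.0 on every array checked. Of 45101 probe sets 34958 carry 1 gene symbol (18194 genes), 932 several and 9211 none, by the platform annotation. The 9 members matched the RefSeq gene table by Entrez number. A gene took its highest probe set per cell, as in the study's methods. Arrays were compared by Pearson's r of log2 signals floored at 100, and 1 pair above 0.95 was averaged.

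A gene was on at 2000. Medians of log2 signal floored at 1000 were subtracted, and a difference of 1 was called. With 1 sample a condition no test was run, and the number of arrays limits the precision. The members and lists were chosen with earlier results of these data known. The 16 ubiquitous genes measured, of 20 listed, the 2 adult WT cells used alone, the ages compared within a model and the split by markers were chosen after the values were seen. Other genes are named where on in at least 20 cells, without overlap at a 2-fold difference or among the 2 largest differences of a comparison, and by the 3 highest rank correlations; the others are counted only. The remaining genes of the TAM and alpha-v lists were named after their values were seen. Alternatives were quantile normalization or scaling on the 90th percentile, a single probe set for each gene, floors of 500 and 2000, means in place of medians, other thresholds, other controls and leaving out cells; probe sets other than _x_at and each Lrp1 probe set alone were added later. The steps were tested on simulated data. The knocked-out gene of Rhod-ko is not reported here. Computation used NumPy 2.4.6, pandas 2.3.3 and SciPy 1.17.1 under Python 3.11.15, and figures matplotlib 3.10.9.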

Additional observations from a re-analysis of the deposited data

Results flagged for a closer look

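In 11 of 39 combinations of a gene and a group of 4 or 5 cells (28.2%), leaving out 6 of 45 in which all cells lay at the floor, 1 cell stood apart by Dixon's ratio, the gap to the nearest cell over the range of log2 signals floored at 1000, at critical values of 0.829 and 0.71. Chance flags about 1 in 20 groups of unfloored values. That rate does not apply to the 8 cells with a ratio of 1.0, which arises whenever a single cell is above the floor, by however little. Among the TAM genes the ratio was 1.0 for Mertk in cell A3 of Rhod-ko at 25 weeks (2333) and cell A1 of rd1 at P13 (1779), for Axl in adult WT cell MG22 (17795), cell 1 of Rhod-ko at 8 weeks (1253) and cell A4 of rd1 at P13 (1473), and for Gas6 in adult WT cell MG3 (1025) and cell 7 of Rhod-ko at 8 weeks (1176). Gas6 in cell A1 of Rhod-ko at 25 weeks (3549) had a ratio of 0.765. Gulp1 in adult WT cell MG15 (4289) had a ratio of 1.0. Megf10 was low in adult WT cell MG1 (264, ratio 0.717), and Mfge8 in cell A1 of Rhod-ko at 25 weeks was the lowest of its group (16329, ratio 0.798).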

How the results depend on the processing

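Each condition is 1 sample of 3 to 5 cells, so no value here carries an error between animals. Across all settings 593 of the differences of single genes moved by less than the spread between cells, 60 moved by more and 3 that had been called changed sign: Itgav in Rhod-ko at 25 weeks (0.73 against the 2 adult WT cells with most ubiquitous genes on), Itgav in rd1 at P13 (-1.82 for the cells with mainly MGC markers against adult WT) and Megf10 in rd1 at 5 weeks (1.21 with congenic FVB as control). Differences that had not been called changed sign too, Itgav in rd1 at 5 weeks from -0.20 to as much as 4.56 and Gas6 there from 0.20 to -1.71, both with congenic FVB as control. The 593 are not a count of stable calls. The spread was often above the call limit of 1 (1.35 for Itgb5 in Rhod-ko at 25 weeks), so a call could be lost within it. Differences that stayed at 0 under the floor are among the 593 as well. Against those 2 adult WT cells the number of members lower was 2 in Rhod-ko at 8 weeks (1 with all cells) and 2 in rd1 at 5 weeks (1), and the number higher in Rhod-ko at 25 weeks was 1 (3). The 2 members lower in Rhod-ko at 25 weeks became 1 after quantile normalization and 0 with group means. With a floor of 2000 the members higher in rd1 at 5 weeks went from 4 to 1. In rd1 at P13 the members lower went from 0 to 1 after quantile normalization and 2 with the remaining cells against adult WT. Leaving out each cell gave 1 to 2 members lower and 2 to 3 higher in Rhod-ko at 25 weeks, 4 to 5 higher in rd1 at 5 weeks, and 2 to 5 higher and 0 to 1 lower in rd1 at P13. At a threshold of 10000 the 107 instances of a member on in a cell fell to 50 and the median of members on per cell from 4 to 2. The cause of these moves was not tested. With 1 probe set per gene, which for Lrp1 is 1442849_at, the Lrp1 differences in Rhod-ko at 25 weeks and both rd1 groups were 0. Without _x_at probe sets Itgb5 in Rhod-ko at 25 weeks was 0.39. Itgav in Rhod-ko at 8 weeks was 0.82 after scaling to the 90th percentile, and Axl in rd1 at 5 weeks was 0.90 with group means. No paired analysis was possible because labels such as A1 that recur between groups only name cells, and no test was run.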
